A study of Mus musculus with 26 samples.

Results

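The genes described here were 10 members of the drug-metabolising system: the Cyp2b enzymes Cyp2b9, Cyp2b10, Cyp2b13, Cyp2b19 and Cyp2b23, the related enzymes Cyp2e1 and Cyp2f2, the nuclear receptors Nr1i3 and Nr1i2, and the reductase Por. They were taken by gene name, out of 37074 gene names on the array, and were measured in inguinal subcutaneous white adipose tissue. Cyp2b9 and Cyp2b10 were chosen because their own values were higher in the total ChREBP KO mice and not in the ChREBPβ KO mice. Their differences in both lines are therefore given as descriptions, without a test. The other 8 were listed by name, with earlier results of these data known. The 10 genes had 15 probes, of which 9 passed the detection filter, and these stood for 7 of the 10 genes. Cyp2b13, Cyp2b23 and Nr1i2 had no probe that passed.

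Cytochrome P450 enzymes are haem proteins of the endoplasmic reticulum that oxidise drugs, steroids, fatty acids and solvents, and they take their electrons from NADPH through the reductase encoded by Por. In liver, the Cyp2b genes are the classical targets of the constitutive androstane receptor CAR, encoded by Nr1i3, and respond also to the pregnane X receptor PXR, encoded by Nr1i2. Both receptors bind DNA together with the retinoid X receptor. Cyp2e1 oxidises ethanol, acetone and fatty acids and is known to rise in ketosis, and Cyp2f2 is best known from the club cells of the airway. ChREBP, encoded by Mlxipl, is a glucose-responsive transcription factor whose β isoform is transcribed from an alternative promoter.

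Each of the 26 mice gave 1 array. The groups were total ChREBP KO (n = 7), a whole-body Mlxipl-null line lacking both the α and the β isoform, its WT littermates (n = 7), ChREBPβ KO (n = 5), a whole-body CRISPR deletion of the exon used only by the β isoform, and the WT littermates of that line (n = 7). The study describes the mice as C57BL6/J males. Their age is not given in the sources used here. All mice ate chow, went without food for 24 h and had food and 20% glucose water back for 18 h before sampling, so that no fasted group entered any comparison. The total ChREBP KO line and the ChREBPβ KO line each had their own WT mice, and the littermates came from several litters.

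The Mlxipl probe with the largest difference was 4.63-fold lower in total ChREBP KO than in its WT littermates (log2 difference -2.21, limma adjusted p = 2.14e-12) and 2.90-fold lower in ChREBPβ KO than in its own (log2 difference -1.54, limma adjusted p = 3.22e-06), with no overlap between groups in either line. Another Mlxipl probe moved less (log2 differences -0.91 and -0.68) and a further one hardly at all (-0.14 and 0.04). Arrays had a median spot intensity of 59 to 107.5 over a median background of 15 to 23, between 70.2% and 76.5% of spots were well above background, and the number of arrays limits the precision. The 12 adipocyte markers listed for the labelled tissue, such as Adipoq and Plin1, were all well above background on all 26 arrays. The 2 WT groups differed from each other at 45.2% of probes, which is about as many as differed between total ChREBP KO and its WT littermates (45.6%), against 0.0361% between ChREBPβ KO and its WT littermates. Every KO was therefore compared with the WT littermates of its own line.

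Since the Cyp2b genes are paralogs that lie in the same cluster on chromosome 7, with other genes between some of them, the probes themselves are shown first. The Cyp2b9 probe (A_51_P467076, mm9 chr7:26995607-26995666) was assigned by the array annotation to transcripts of both Cyp2b9 and Cyp2b10, whereas both Cyp2b10 probes (A_55_P2044653, mm9 chr7:26711522-26711581, and A_52_P472486, mm9 chr7:26702056-26702115) were assigned to Cyp2b10 alone. The 30 bases at the start of the Cyp2b9 probe and at the end of the brighter Cyp2b10 probe hold the longest run that any Cyp2b probes on this array have in common, 10 bases, given in capitals, and the other Cyp2b10 probe is given whole. Written 5′ to 3′ as on the array, they read as follows.
Cyp2b9, A_51_P467076, bases 1 to 30: TAAGGTCTGAtttctatgtctacagacttg
Cyp2b10, A_55_P2044653, bases 31 to 60: gtgctaatggactctgtaTAAGGTCTGAat
Cyp2b10, A_52_P472486, whole: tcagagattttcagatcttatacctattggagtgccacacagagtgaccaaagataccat
Among the 28 pairs that the 8 Cyp2b probes form, the next longest common run was 8 bases. A probe can still bind a paralogous transcript that resembles its target without sharing sequence with the paralog's probe, and the transcripts themselves were not compared here, so the part of cross-hybridisation in the Cyp2b9 and Cyp2b10 values was not tested.

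The stretches of 250 bases before the annotated starts of Cyp2b9, Cyp2b13 and Cyp2b10 are printed because the first and the last of these genes stood high in total ChREBP KO while the probe for Cyp2b13 did not rise above background on any array. They are given on the coding strand from the RefSeq table of assembly GRCm38.p6, a different build from that of the probe positions.
Cyp2b9, chr7:26173159-26173408, plus strand: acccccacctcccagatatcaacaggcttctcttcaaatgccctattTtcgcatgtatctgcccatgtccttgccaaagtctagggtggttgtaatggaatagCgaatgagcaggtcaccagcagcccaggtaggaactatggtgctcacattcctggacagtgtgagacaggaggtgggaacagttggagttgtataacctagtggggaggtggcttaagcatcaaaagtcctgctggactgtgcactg
Cyp2b13, chr7:26061245-26061494, plus strand: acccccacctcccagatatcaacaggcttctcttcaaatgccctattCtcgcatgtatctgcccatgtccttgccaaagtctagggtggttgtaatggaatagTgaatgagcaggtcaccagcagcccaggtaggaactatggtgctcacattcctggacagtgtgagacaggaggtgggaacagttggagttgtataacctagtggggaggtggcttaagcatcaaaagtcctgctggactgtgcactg
Cyp2b10, chr7:25897408-25897657, plus strand: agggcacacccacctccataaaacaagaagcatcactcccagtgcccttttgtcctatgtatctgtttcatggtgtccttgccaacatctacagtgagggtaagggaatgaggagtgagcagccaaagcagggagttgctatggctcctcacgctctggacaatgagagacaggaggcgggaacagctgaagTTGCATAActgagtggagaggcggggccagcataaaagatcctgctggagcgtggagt
Capitals in the Cyp2b9 and Cyp2b13 sequences mark the only positions at which they differ, T48C and C104T from Cyp2b9 to Cyp2b13, counted from 1 at the 5′ end, so that 248 of 250 bases (99.2%) were identical. Cyp2b9 and Cyp2b10 were identical at 187 of 262 aligned columns (71.4%). Capitals in the Cyp2b10 sequence mark a match to TTGCNNAA, a simplified form of the C/EBP motif, 58 bases before the start. TTGCNNAA was searched on both strands and occurred in 9.56% of the 32851 promoters of this length and in 5 of the 10 members, Cyp2b9, Cyp2b13, Cyp2b10, Cyp2b19 and Cyp2b23. The nuclear receptor motif AGGTCA occurred in 14% of promoters and also in 5 members, Cyp2b9 and Cyp2b13 at 138 bases before the start, Cyp2b19, Cyp2b23 and Cyp2f2. The E-box CACGTG, the core of the element that ChREBP binds, occurred in 6.02% of promoters and in 1 member, Nr1i3, at 244 bases before the start. These are matches of letters in short windows and do not bear on sites outside them, such as the distal enhancer through which CAR acts on Cyp2b10.

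Of the receptors, CAR transcript was detected in all groups at overlapping levels and PXR transcript was mostly not. The Nr1i3 probe (A_51_P358256, mm9 chr1:173147776-173147835) was at 9.80, 10.11 and 10.55 (lowest, median and highest normalised log2 intensity) in WT of the total line, at 9.59, 10.09 and 10.70 in total ChREBP KO and at 9.38, 10.17 and 10.72 in WT of the β line. In ChREBPβ KO it was at 10.08, 10.40, 9.81, 9.24 and 10.32. All 4 groups overlapped. The difference between total ChREBP KO and WT was -0.03 ± 0.20 (SE, limma adjusted p = 0.906, 95% interval -0.46 to 0.39), and that between ChREBPβ KO and WT was -0.14 ± 0.22 (limma adjusted p = 0.954, 95% interval -0.61 to 0.32). The intervals leave room for changes of about those sizes in either direction. A further Nr1i3 probe was well above background on 1 array, from WT of the β line. The Nr1i2 probe (mm9 chr16:38248745-38248804, minus strand) was well above background on 4 of 26 arrays, 1 from WT of the total line, 2 from WT of the β line and 1 from ChREBPβ KO, and thus did not enter the tests.

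**Figure D1:**
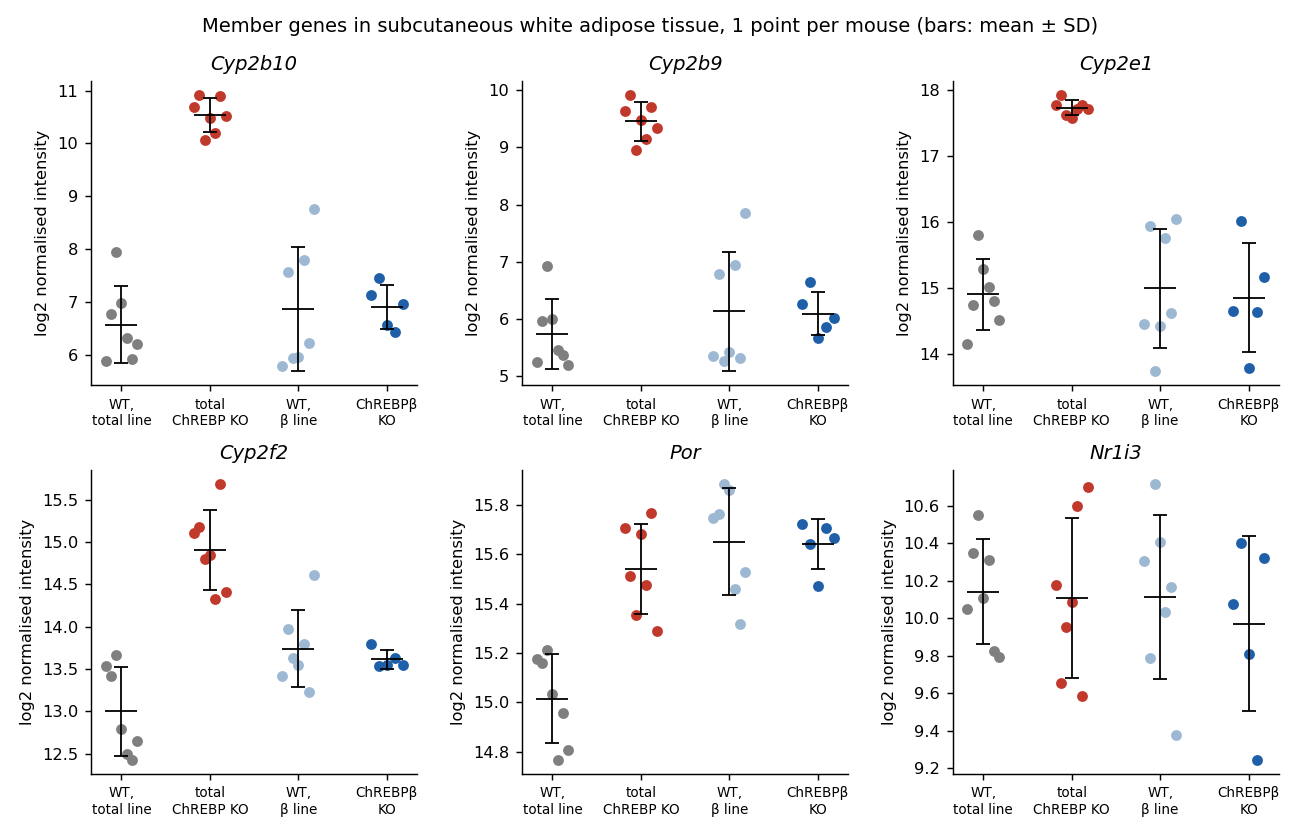
Normalised log2 intensity (y axis) of the members' probes in each mouse, by group (x axis), with 1 point per array and the group mean and SD. Cyp2b9, Cyp2b10, Cyp2e1 and Cyp2f2 were higher in every total ChREBP KO mouse than in any of its WT littermates, while the 4 groups of Nr1i3 overlapped and Por was lowest in WT of the total line.

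The Cyp2b10 and Cyp2b9 enzymes, which oxidise steroids and drugs, stood apart in total ChREBP KO. The brighter Cyp2b10 probe was at 5.87, 6.31 and 7.94 (lowest, median and highest) in WT of the total line, at 10.07, 10.52 and 10.92 in total ChREBP KO and at 5.78, 6.22 and 8.77 in WT of the β line. In ChREBPβ KO its values were 7.13, 7.46, 6.55, 6.42 and 6.96. All 7 total ChREBP KO mice were above all 19 other mice, and the ChREBPβ KO mice lay within the range of their WT littermates. The mean difference between total ChREBP KO and WT was 3.97 ± 0.38 (SE) on the log2 scale, a 15.7-fold difference, and that between ChREBPβ KO and WT was 0.04 ± 0.42.

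Cyp2b9 gave the same picture at its own probe, with 5.20, 5.46 and 6.92 in WT of the total line, 8.95, 9.48 and 9.92 in total ChREBP KO, 5.27, 5.43 and 7.85 in WT of the β line and 6.27, 6.65, 5.68, 5.87 and 6.02 in ChREBPβ KO. Again the total ChREBP KO mice did not overlap with any other group. The mean difference in the total line was 3.72 ± 0.34 (SE) on the log2 scale, 13.1-fold, and that in the β line was -0.04 ± 0.37. The Cyp2b9 probe was well above background on all 26 arrays, but the scanner software marked its spot as found on 18 of them, 5 from WT of the total line, 7 from total ChREBP KO, 3 from WT of the β line and 3 from ChREBPβ KO, so that it passed the filter only through the group where it was high. Only 5 of 25407 gene names showed a larger rise in total ChREBP KO than Cyp2b10. The share of gene names whose total ChREBP KO arrays all lay above all WT arrays was 10%, printed here as background, since these 2 genes were chosen on that contrast.

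The dimmer Cyp2b10 probe, in another part of the transcript, was well above background on all 7 total ChREBP KO arrays, on none of their WT littermates', on 3 arrays of WT of the β line and on none of ChREBPβ KO. It thus passed the filter only through the group where it was high. Mean log2 intensity was 6.80 in total ChREBP KO and 4.36 in WT, and against the lowest signal measured above background the difference was at least 4.65-fold. For such a probe the WT value is only a bound.

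The remaining Cyp2b genes were at or near background. Neither the Cyp2b13 probe (mm9 chr7:26880905-26880964), the Cyp2b23 probe (mm9 chr7:27450250-27450309, minus strand) nor 2 of the Cyp2b19 probes was well above background on any of the 26 arrays. The other Cyp2b19 probe (A_55_P2080220, mm9 chr7:27557545-27557604), for an enzyme known from keratinocytes, was above background on 5 arrays of WT of the total line, 1 of total ChREBP KO, 5 of WT of the β line and 4 of ChREBPβ KO. This probe passed the filter only through ChREBPβ KO, and neither group of the total line met it. Its mean log2 intensity was 4.90 in WT of the total line and 4.72 in total ChREBP KO, a difference of -0.18 ± 0.08 that did not pass (limma adjusted p = 0.0831, 95% interval -0.35 to -0.01). With the scanner's background-subtracted signal it did pass (difference -0.67, limma adjusted p = 0.00523), and with normexp correction too (-0.09, limma adjusted p = 0.0326).

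The brighter Cyp2b10 probe and the Cyp2b9 probe varied together from mouse to mouse. Within an array, the brighter Cyp2b10 probe exceeded the Cyp2b9 probe by an amount that had an SD of 0.21 over the 26 arrays. The values themselves had SDs of 1.86 and 1.70, but these contain the difference between the groups, on which both genes were chosen. Within total ChREBP KO alone the SDs of the values were 0.32 for Cyp2b10 and 0.34 for Cyp2b9. Within its WT littermates they were 0.73 and 0.61. That within-array difference was 1.09 ± 0.08 (SD, n = 7) in total ChREBP KO, 0.83 ± 0.19 (n = 7) in its WT littermates, 0.73 ± 0.19 (n = 7) in WT of the β line and 0.81 ± 0.15 (n = 5) in ChREBPβ KO. Among the 7 WT mice of the total line Pearson's r between both probes was 0.975 (exact permutation p = 0.00258, adjusted over 30 relations 0.0387) and Spearman's rho was 0.893 (exact permutation p = 0.0123, adjusted 0.114). Among the 7 total ChREBP KO mice r was 0.973 (exact permutation p = 0.000595, adjusted 0.0179) and rho was 0.964 (exact permutation p = 0.00278, adjusted 0.0833). Without the 2 mice farthest from the median of Cyp2b10, r was 0.858 and 0.948. The Cyp2b9 probe is annotated to Cyp2b10 transcripts as well, and readings of the same transcript would vary together in any case. These p-values therefore cannot tell separate genes from a shared transcript. The part of the shared annotation in these values was not tested.

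The WT mice of the β line fell into separate clusters, with 4 at Cyp2b10 values of 5.78 to 6.22 and 3 (replicates 2, 6 and 8) at 7.56 to 8.77. For that reason no correlation was calculated within this group alone. The same 3 mice had the 3 highest Cyp2e1 values of their group (15.75 to 16.05, against 13.74 to 14.63 in the other 4) and its 3 lowest Nr1i3 values (9.38 to 10.03, against 10.17 to 10.72). In WT of the total line the relation of Cyp2b10 to Nr1i3 ran the other way (r = 0.769, exact permutation p = 0.0381, adjusted 0.143), and in total ChREBP KO r was -0.54 (exact permutation p = 0.215). Neither passed after adjustment.

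**Figure D2:**
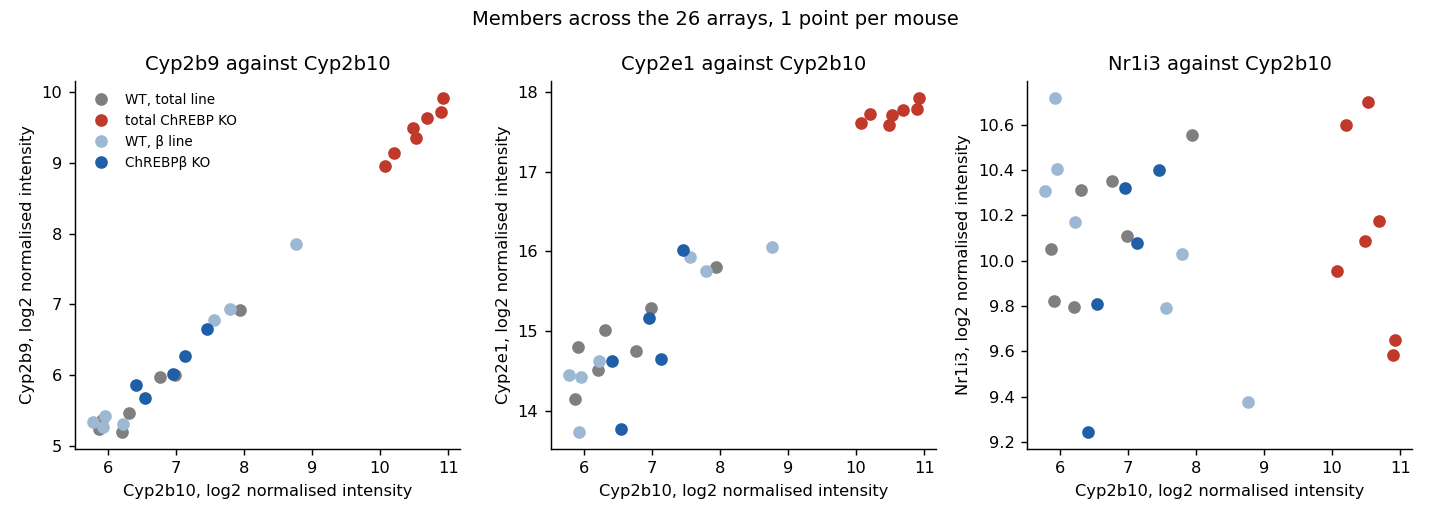
Normalised log2 intensity of other members (y axes) against that of the brighter Cyp2b10 probe (x axis), 1 point per mouse, coloured by group. Cyp2b9 follows Cyp2b10 within and between groups, Cyp2e1 less closely, and Nr1i3 lies between 9.24 and 10.72 over all arrays. In WT of the β line the mice with the highest Cyp2b10 values had the lowest Nr1i3 values.

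Cyp2e1 was among the genes that rose most in total ChREBP KO. Its brighter probe (A_55_P1999301, mm9 chr7:147960628-147960687) was at 14.15, 14.80 and 15.81 (lowest, median and highest) in WT of the total line and at 17.58, 17.72 and 17.93 in total ChREBP KO, without overlap. In WT of the β line it was at 13.74, 14.63 and 16.05, and in ChREBPβ KO at 14.65, 16.02, 13.78, 14.63 and 15.17. The rise in total ChREBP KO was 7.09-fold (log2 difference 2.83 ± 0.33, SE, limma adjusted p = 2.06e-07), and 19 of 25407 gene names rose more. ChREBPβ KO mice did not differ detectably from WT (log2 difference -0.14 ± 0.36, limma adjusted p = 0.979, 95% interval -0.89 to 0.60).

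The other Cyp2e1 probe, at mm9 chr7:147959585-147959644, is shown because it lies elsewhere in the gene and gave a second reading of the rise.
Cyp2e1, A_51_P283456, whole: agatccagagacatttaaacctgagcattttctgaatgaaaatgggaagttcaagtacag
Its mean was 12.81 ± 0.60 (SD, n = 7) for the WT mice of the total line and 16.08 ± 0.31 (n = 7) for their KO littermates, a rise of 9.59-fold (log2 difference 3.26 ± 0.35, limma adjusted p = 5.21e-08), and at 12.75 ± 0.96 (n = 7) and 12.55 ± 0.75 (n = 5) in WT and KO mice of the β line. In total ChREBP KO the brighter probe ranked between 32 and 69 among 38832 probes in brightness and had an SD of 0.11, against 0.54 in WT of the total line. No spot of a member was marked as saturated by the scanner software.

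Cyp2f2 (mm9 chr7:27918570-27918629) was at 12.43, 12.79 and 13.66 in WT of the total line and at 14.32, 14.85 and 15.69 in total ChREBP KO, and the groups did not overlap. It was at 13.23, 13.62 and 14.61 in WT of the β line and at 13.80, 13.54, 13.55, 13.63 and 13.55 in ChREBPβ KO. The rise in total ChREBP KO was 3.76-fold (log2 difference 1.91 ± 0.22, limma adjusted p = 2.09e-07). In ChREBPβ KO the difference was -0.13 ± 0.24 (limma adjusted p = 0.966, 95% interval -0.63 to 0.38). Markers of club cells, the airway cells in which Cyp2f2 is best known, did not move together: of 3 tested, Scgb3a2 rose by 1.11 on the log2 scale, 1 fell and 1 did not pass.

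Por, the electron donor of all these enzymes, rose less. Its probe (mm9 chr5:136211116-136211175) was at 14.77, 15.03 and 15.21 in WT of the total line and at 15.29, 15.51 and 15.77 in total ChREBP KO, without overlap, a 1.44-fold difference (log2 difference 0.53 ± 0.10, limma adjusted p = 8.82e-05). In WT of the β line it was at 15.32, 15.75 and 15.89, and in ChREBPβ KO at 15.73, 15.64, 15.47, 15.71 and 15.67, with a difference of -0.01 ± 0.10 (limma adjusted p = 0.995, 95% interval -0.23 to 0.21). The WT mice of the total line thus held the lowest values, and the total ChREBP KO values overlapped with those of both groups of the β line. Por is 597 kb from the nearest Mlxipl probe on chromosome 5 in mm9.

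The 5 other members with a tested probe were listed by name. Since earlier results of these data were known, their count and p-values do not come from an unselected set. Of these 5, 3 (Cyp2e1, Cyp2f2 and Por) rose in total ChREBP KO and none fell. Over all gene names 26.2% rose and 19.7% fell. For each of these 3 the exact permutation test over the 7 and 7 mice gave p = 0.000583 (two-sided, unadjusted), the smallest that its 3432 regroupings allow. For Nr1i3 the exact permutation p was 0.858 and for Cyp2b19 it was 0.0583. In all 4 wash batches the total ChREBP KO arrays were above the WT arrays of the same batch, by 2.44 to 4.60 for Cyp2b10, 2.37 to 4.31 for Cyp2b9, 1.89 to 3.48 for Cyp2e1, 1.29 to 2.47 for Cyp2f2 and 0.32 to 0.74 for Por on the log2 scale. Nr1i3 differed by -0.55 to 0.28 across the batches, each of which held 1 or 2 arrays of either group.

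No member of the 5 passed in ChREBPβ KO (limma), where 0.0472% of gene names did and 3072 probes had an unadjusted p under 0.05. Exact permutation p-values ran from 0.601 to 0.927, and the smallest that 792 regroupings allow was 0.00253. The difference between the KO effects, β line minus total line, was tested directly. It passed for Cyp2e1 (-2.97 ± 0.49, limma adjusted p = 0.000129), Cyp2f2 (-2.04 ± 0.33, limma adjusted p = 0.000111) and Por (-0.54 ± 0.14, limma adjusted p = 0.00863), 3 of 5 members, where 13.1% of gene names had a lower and 9.94% a higher effect in the β line. It did not pass for Nr1i3 (-0.11, limma adjusted p = 0.836) or Cyp2b19 (0.16, limma adjusted p = 0.372). For Cyp2b10 and Cyp2b9 the same differences were -3.93 and -3.75, as a description.

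**Figure D3:**
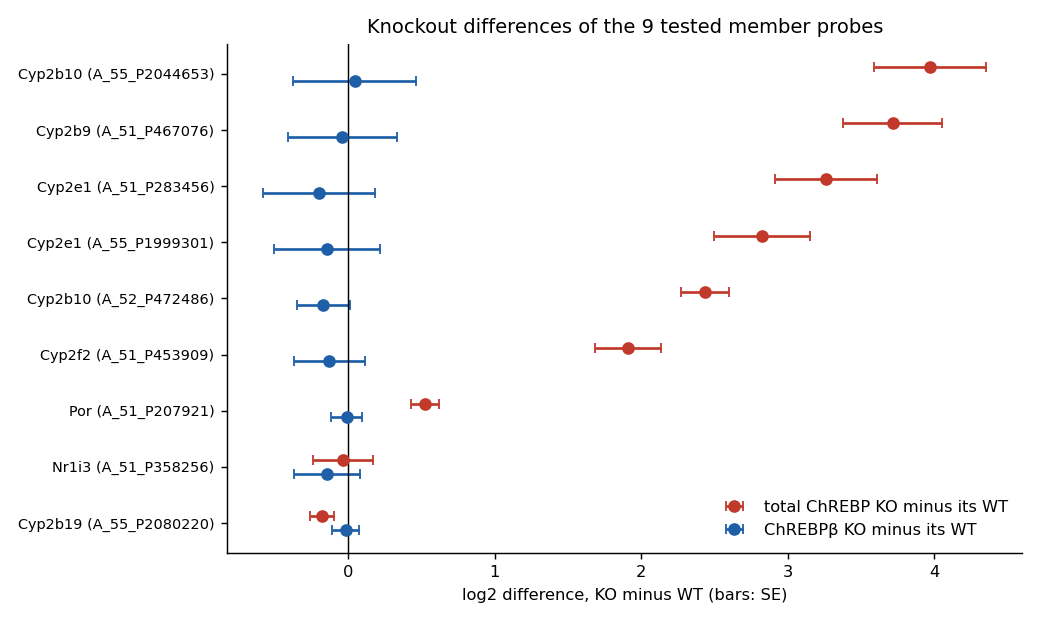
Log2 difference between KO and WT littermates (x axis) for each member's probe (y axis), in the total line and the β line, as means with bars of 1 SE. In the total line Cyp2b10, Cyp2b9, Cyp2e1, Cyp2f2 and Por lie above 0, and in the β line every bar crosses 0.

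The WT mice of both lines differed from each other in Por and Cyp2f2 but not detectably in Cyp2e1. Por was higher in WT of the β line by 0.64 ± 0.10 on the log2 scale (limma adjusted p = 6.99e-06, no overlap) and Cyp2f2 by 0.74 ± 0.22 (limma adjusted p = 0.00816, with overlap), 2 of 5 members, where 26.4% of gene names were higher, 19.2% were lower and 10.7% were higher without overlap. Cyp2e1 differed by 0.09 (limma adjusted p = 0.844) and Nr1i3 by -0.03 (limma adjusted p = 0.926). Cyp2b10 and Cyp2b9 stood 0.29 ± 0.38 and 0.39 ± 0.34 higher, as a description.

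Cell type marker scores, the mean log2 intensity of a fixed list, moved with the groups and stand beside the results above. In bulk tissue, fewer cells of a type and less RNA per cell cannot be told apart. As background for the marker counts, 26.2% of all gene names rose and 19.7% fell in total ChREBP KO. The adipocyte score, from 12 markers of which 11 rose in total ChREBP KO, lay between 15.23 and 15.82 in WT of the total line and between 16.11 and 16.34 in total ChREBP KO, without overlap, and for the β line between 15.95 and 16.18 in WT and between 15.87 and 16.33 in KO mice. The lymphocyte score, from 15 markers that all fell in total ChREBP KO, lay between 10.96 and 12.72 in WT of the total line and between 7.81 and 11.32 in total ChREBP KO, and for the β line between 7.17 and 8.02 in WT and between 7.13 and 8.88 in KO mice. With the adipocyte score as a covariate no member passed in total ChREBP KO: Cyp2e1 was then 0.91 higher (limma adjusted p = 0.402), Cyp2f2 1.17 (limma adjusted p = 0.142) and Por 0.13 (limma adjusted p = 0.757), and the descriptive differences of Cyp2b10 and Cyp2b9 were 2.24 and 2.02. With the lymphocyte score Por alone was lost (0.28, limma adjusted p = 0.124), and the difference of Cyp2f2 between the WT groups was 0.0109 in place of 0.74. The part of these cell types in the results was not tested further.

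Hepatocytes are a known site of Cyp2b10, Cyp2e1 and Por. Of 10 hepatocyte markers, all tested, none rose and 2 fell in total ChREBP KO. Their score lay between 7.63 and 12.03 in WT of the total line and between 6.71 and 8.58 in total ChREBP KO, and for the β line between 7.03 and 11.23 in WT and between 7.78 and 11.86 in KO mice. With this score as a covariate, an alternative chosen after seeing the data, Cyp2e1, Cyp2f2 and Por still passed in total ChREBP KO, by 2.68, 1.69 and 0.47 (limma adjusted p = 2.86e-06, 2.09e-06 and 0.000869). Beige fat markers fell in 5 of 7 and rose in 1 of 7, macrophage markers fell in 2 of 8, skeletal muscle markers rose in 3 of 12, and none of the 8 tested epithelial markers passed. Over all gene names 26.2% rose and 19.7% fell in total ChREBP KO. The falls of hepatocyte and macrophage markers and the rises of muscle markers were near those shares.

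Outside the family, the genes whose values over the 26 arrays were most like those of Cyp2b10 were Bcat2, the mitochondrial enzyme that starts branched-chain amino acid breakdown (r = 0.955), Abhd5, the activator of adipose triglyceride lipase (0.950), Aldh4a1 of proline breakdown (0.947), Tst, a mitochondrial sulfur transferase (0.947), and a transcript of chromosome 15 without a gene name (0.945). For Cyp2b9 they were Bcat2 (0.959), the folate enzyme Aldh1l1 (0.958), Tst (0.954), Aldh4a1 (0.951) and Abhd5 (0.949). Within the family r with Cyp2b10 was 0.997 for Cyp2b9, 0.969 for Cyp2e1, 0.877 for Cyp2f2, 0.220 for Por and -0.07 for Nr1i3. These correlations contain the difference between the groups and are descriptions over arrays that share it. In total ChREBP KO the differences of these genes were 2.27 for Bcat2, 0.91 for Abhd5, 1.1 for Aldh4a1, 2.34 for Tst and 1.57 for Aldh1l1 on the log2 scale.

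Other relations between members within a group rested on few mice. Cyp2e1 went with Cyp2b10 in WT of the total line (r = 0.881, exact permutation p = 0.00873, adjusted 0.0619) and in total ChREBP KO (r = 0.738, exact permutation p = 0.0532, adjusted 0.156), rho being 0.821 in both, but without the 2 farthest mice r was 0.456 and 0.459, so that these relations rest on those mice. Cyp2f2 ran against Nr1i3 in total ChREBP KO (r = -0.895, rho = -0.821, exact permutation p for r = 0.0103, adjusted 0.0619, and r = -0.832 without the 2 farthest mice). Of the 30 relations, 8 had an unadjusted p under 0.05. After adjustment 2 passed by Pearson's r and none by rho. Both were between the Cyp2b10 and Cyp2b9 probes, which share the annotation to Cyp2b10 transcripts. A wash batch held too few arrays of a group for values within batches.

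**Figure D4:**
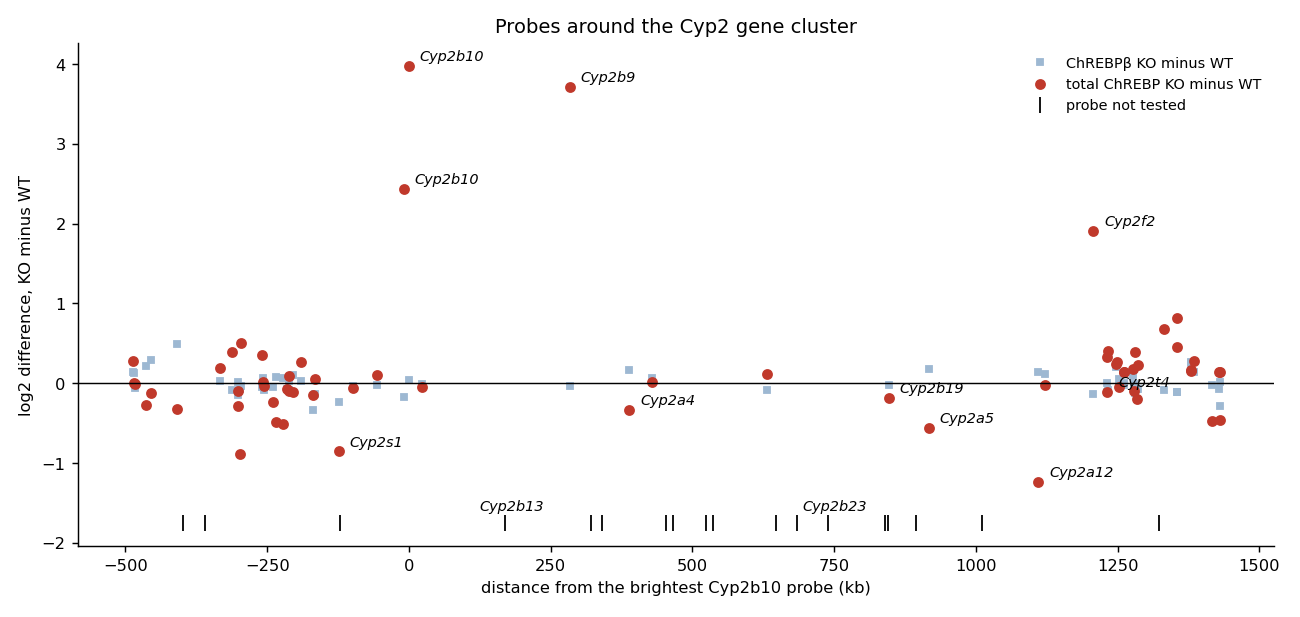
Log2 difference between KO and WT (y axis) of tested probes around the Cyp2 cluster on chromosome 7 against distance from the brighter Cyp2b10 probe in kb (x axis), with ChREBPβ KO minus WT as squares and untested probes as ticks. In total ChREBP KO, Cyp2b10, Cyp2b9 and Cyp2f2 stand above their neighbours, of which none exceeded a log2 difference of 0.82.

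The genes around Cyp2b9, Cyp2b10 and Cyp2f2 were examined next. In a window from 500 kb before to 1500 kb after the brighter Cyp2b10 probe, chosen after seeing the data, 63 of 81 probes were tested and 58 of these belonged to genes other than the members. Of the 58, 15 were higher (25.9%), 9 were lower (15.5%) and 34 did not pass in total ChREBP KO (limma). These are shares of probes, with several probes for some genes. Over all gene names, each at its brightest probe, 26.2% rose and 19.7% fell. None of the 58 passed in ChREBPβ KO, where 0.0361% of all probes did. The largest rise among them was 0.82, of Numbl. Cyp2s1, an extrahepatic P450, fell by 0.85 on the log2 scale (limma adjusted p = 0.00372), and the coumarin and steroid hydroxylase genes Cyp2a4 and Cyp2a5 had differences of -0.33 and -0.55 that did not pass, as did Cyp2t4 (-0.11) and Cyp2a12 (-1.23, limma adjusted p = 0.183).

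Of 85 listed genes of the P450 superfamily outside the members, 63 were tested, of which 7 rose (11.1%), 10 fell (15.9%) and 46 did not pass in total ChREBP KO, where 26.2% of all gene names rose and 19.7% fell. The median difference was -0.32 against 0.05 over all genes. The number that rose was 0 with the adipocyte score as a covariate, 4 with the lymphocyte score and 19 with the hepatocyte score, the last chosen after seeing the data. Those that rose most were the epoxygenases and hydroxylases Cyp2j6 (0.80 ± 0.13), Cyp2j13 (0.73 ± 0.10, while another probe for it was at -0.06) and Cyp2j9 (0.64 ± 0.09). Cyp2d12 fell by 1.23 on the log2 scale, the sterol hydroxylase Cyp27a1 by 1.15 and the leukotriene hydroxylase Cyp4f18 by 1.14. None passed in ChREBPβ KO, where 0.0472% of all gene names did.

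**Figure D5:**
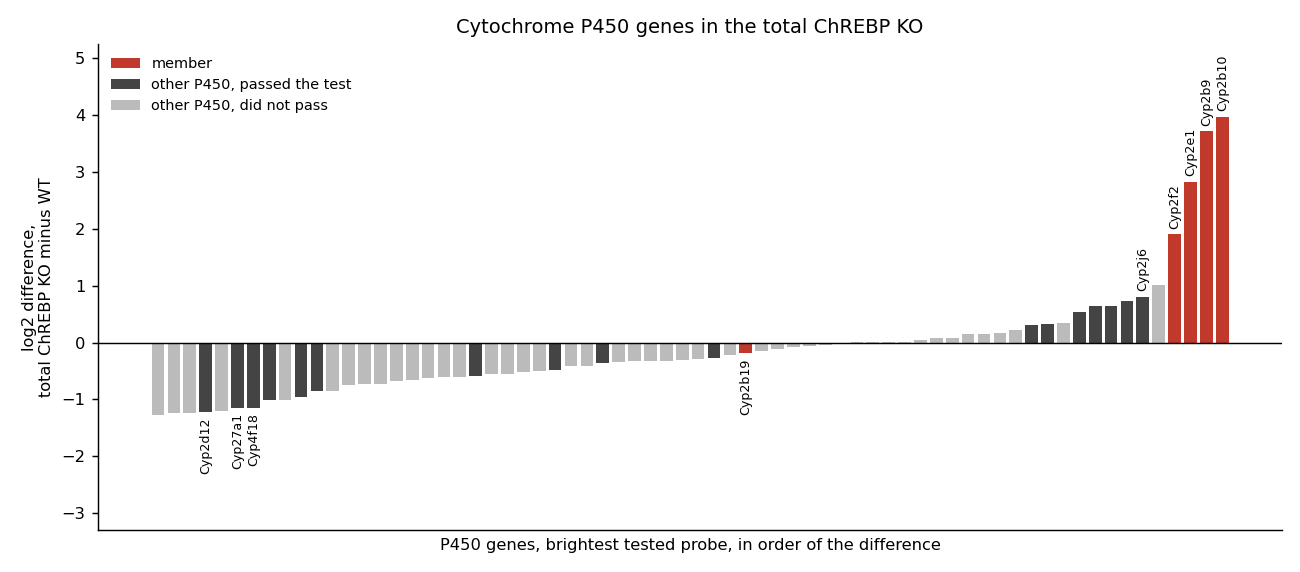
Log2 difference between total ChREBP KO and WT (y axis) of every tested P450 gene at its brightest probe, in order of size (x axis), with members and genes that passed in limma marked. Cyp2b10, Cyp2b9, Cyp2e1 and Cyp2f2 hold the highest places, and the highest non-member that passed is Cyp2j6 at 0.80.

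Of 40 listed target genes of CAR and PXR, 32 were tested, 14 rose (43.8%, against 26.2% of all gene names), 2 fell (6.25%, against 19.7%) and 16 did not pass in total ChREBP KO, with a median difference of 0.25 against 0.05 over all genes. The number that rose was 3 with the adipocyte score as a covariate, 9 with the lymphocyte and muscle scores and 21 with the hepatocyte score. Papss2, which makes the sulfate donor for sulfotransferases, rose by 1.45 ± 0.10 (limma adjusted p = 2.25e-11), Alas1, the rate-limiting enzyme of haem synthesis, by 1.23 ± 0.10 (limma adjusted p = 9.49e-10) and the conjugate exporter Abcc3 by 1.01 ± 0.14 (limma adjusted p = 2.70e-06, another probe at 0.35). The others that rose were the glutathione transferases Gstt1, Gstm1, Gstm2, Gstm3 and Gsta4, the dehydrogenases Aldh1a1 and Aldh1a7, the oxygenase Fmo5, the oestrogen sulfotransferase Sult1e1 and the exporters Abcb1a and Abcc4. Another Fmo5 probe was at 0.09 (limma adjusted p = 0.573) and another Abcb1a probe at 0.01 (limma adjusted p = 0.941). The stress gene Gadd45b fell by 1.34 (limma adjusted p = 8.24e-05) and the epoxide hydrolase Ephx1 by 0.73 (limma adjusted p = 1.86e-06). No Cyp2c or Cyp3a gene of the list passed. Under ChREBPβ deficiency no gene of the list passed (limma), where 0.0472% of all gene names did. The KO effect was lower in the β line than in the total line for 10 genes (31.2%, against 13.1% of all gene names). It was higher for 2 (6.25%, against 9.94%). Between the WT groups, 15 of the 32 were higher in the β line (46.9%, against 26.4% of all gene names). A further 3 were lower (9.38%, against 19.2%), and the median was 0.51 against 0.03 over all genes.

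Of the genes that serve P450 enzymes with electrons and haem, 20 were tested, 10 rose (50%, against 26.2% of all gene names), 1 fell (5%, against 19.7%) and 9 did not pass, with a median of 0.17 against 0.05 over all genes. Next to Alas1, cytochrome b5 of the endoplasmic reticulum Cyb5a rose by 0.77 ± 0.12, its mitochondrial counterpart Cyb5b by 0.52 ± 0.10 and ferrochelatase Fech by 0.42. The mitochondrial ferredoxin Fdx1 fell by 0.36. With the lymphocyte score as a covariate 2 genes of this list rose, and with the adipocyte score also 2.

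Of the receptors' partners and coregulators, 15 were tested, 5 rose (33.3%), 2 fell (13.3%) and 8 did not pass, with a median of 0.05, against 26.2%, 19.7% and a median of 0.05 over all genes. With the adipocyte score as a covariate 0 of them rose. The dimerisation partners Rxra and Rxrg rose by 0.74 ± 0.08 and 0.60 ± 0.08 and the corepressor Nrip1 by 0.55 ± 0.12 (4 other probes between 0.27 and 1.20), whereas Dnajc7, a chaperone that holds CAR in the cytoplasm, fell by 0.45, and the coactivator Ncoa3 by 0.53 at its brightest probe but by 0.08 at another (limma adjusted p = 0.521). Of 18 genes for other xenobiotic sensors and their targets, 3 rose (16.7%), 5 fell (27.8%) and 10 did not pass, with a median of -0.13. The liver X receptor Nr1h3 rose by 0.93 ± 0.08, the quinone reductase Nqo1 by 0.91 ± 0.15 and Mafg by 0.34 ± 0.07, while Maff, a small Maf protein, fell by 3.74 ± 0.23, and the antioxidant genes Srxn1 and Gclc fell by 0.43 and 0.40. In ChREBPβ KO none of these genes passed (limma), where 0.0472% of all gene names did.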

How the data were processed

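RNA of each of 26 mice was hybridised by the authors to a 1-colour Agilent array, and the deposited scanner files hold spot intensity from Agilent Feature Extraction 10.10.1.1 per the submitters' processing notes. Of 62976 spots, 59305 were no controls (56605 probes). Following the study's methods, median intensity was used without background subtraction. A spot entered if it was found, positive, significant and well above background on 21 or more arrays, or on 75% of those of 1 group. The 97 values marked as outliers were left out, and values were taken to log2, quantile normalised and reduced to the median of replicate spots, leaving 38832 probes and 25407 gene names. The deposited table of log2 values made by the authors (40168 probes, scale taken as normalised) served as an alternative. Gene names and mm9 positions come from the scanner files, and promoters from RefSeq, in which all 10 members were found.

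Tests used limma 3.58.1 in R 4.3.3 on 4 group means (22 residual degrees of freedom), Benjamini-Hochberg adjustment over all probes and a threshold of 0.05. P-values measure the spread between these mice. A gene was represented by its brightest probe. The members and gene lists were chosen with earlier results of these data known. Named from each list were up to 3 genes with the largest change in each direction among those that passed, and, for likeness, the 5 genes with the highest r. Genes named beyond this (the other CAR and PXR targets that rose, Fech, Scgb3a2 and the neighbours on chromosome 7) were chosen after their values were seen. The fit was also tested on simulated arrays with known differences in total ChREBP KO. It recovered 64% of those of 0.5 on the log2 scale, 92% of 1, 96% of 2 and 100% of 3. False calls numbered 15 among 38735 probes. Alternatives were the background correction, scaling, filter, wash batch, slide, replicate number, array weights, marker scores and each mouse left out.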

Additional observations from a re-analysis of the deposited data

Results flagged for a closer look

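Cyp2e1, Cyp2f2 and Por stood out because their KO effects differed between the total line and the β line in the test of the difference itself. The β effect minus the total effect was -2.97 on the log2 scale for Cyp2e1 (limma adjusted p = 0.000129), -2.04 for Cyp2f2 (limma adjusted p = 0.000111) and -0.54 for Por (limma adjusted p = 0.00863). All 7 total ChREBP KO mice exceeded all 7 of their WT littermates in each of the 3 genes, whereas KO and WT mice of the β line overlapped. A rule on the gap at either end of a set, relative to its range, flagged no mouse in the 36 sets of group values examined. This rule can miss several mice that are high together, such as the WT mice of the β line with higher Cyp2b10 values described above.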

How the results depend on the processing

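With any mouse left out, the number of members that passed remained 3 in total ChREBP KO, 0 in ChREBPβ KO, 3 for the difference of the KO effects and 2 between the WT groups, and the total ChREBP KO differences ran from 3.86 to 4.20 for Cyp2b10, 3.63 to 3.91 for Cyp2b9, 2.70 to 2.98 for Cyp2e1, 1.78 to 2.02 for Cyp2f2 and 0.48 to 0.57 for Por. Mice with the same replicate number did not deviate together (r of -0.36 to 0.51 over 6 pairs in the total line and -0.33 to 0.14 over 4 pairs in the β line), and a replicate block gave the same 4 counts and 3.66 for Cyp2b9 in total ChREBP KO. With normexp correction the Cyp2b9 differences were 2.98 in total ChREBP KO and -3.05 between the KO effects. The other Cyp2b10 probe gave 2.44 and -2.61. With the slide as a fixed block, 0 members passed for the difference of the KO effects (Cyp2e1 -2.60, limma adjusted p = 0.164) and 1 between the WT groups, and Cyp2b10 differed by -3.14 between the KO effects; no slide held both total ChREBP KO and its WT mice. With the lymphocyte score, alone or with the muscle score, 2 members passed in total ChREBP KO and 0 between the WT groups, where Cyp2f2 was at -0.0146 with both scores. With the adipocyte score 0 passed in total ChREBP KO (Cyp2b9 2.02, Cyp2b10 2.24), 0 for the difference of the KO effects (Cyp2b9 -2.27, Cyp2b10 -2.41) and 1 between the WT groups (Cyp2b9 -0.92, Cyp2b10 -1.05 and Cyp2e1 -1.39). Within wash batch 1 alone Cyp2b9 and Cyp2b10 differed by 2.37 and 2.44 in total ChREBP KO and by 1.03 and 1.34 in ChREBPβ KO, and within batch 4 by -0.85 and -1.03 in ChREBPβ KO. Between the WT groups Cyp2b9 was at -1.49, -0.42 and 1.43 in batches 1, 3 and 4, Cyp2b10 at -1.98 and 1.39 in batches 1 and 4, and Cyp2f2 at -0.12 in batch 1. These batch values rest on few arrays. Between the WT groups they compare 1 array of the β line with 1 of the total line in batch 1. In batch 3 it was 1 with 2, and in batch 4 it was 3 with 2. For ChREBPβ KO they compare 2 KO arrays with 1 WT array in batch 1 and 1 with 3 in batch 4. Replicates 6 and 8 of WT of the β line, both high in Cyp2b10, were in batch 4. Why these values moved was not tested. With all detection flags required on 21 arrays, Cyp2b9 (found on 18 arrays) and Cyp2b19 gave no value. List counts in total ChREBP KO moved most with the slide and the scores: CAR and PXR targets that rose ran from 3 to 21 and haem and electron transfer genes from 1 to 10, and P450 genes from 0 with the adipocyte score to 19 with the hepatocyte score, which was added after seeing the data. Probes near background, Cyp2b19 and the dimmer Cyp2b10 probe, are where signal limits what can be said.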
